A study of Mus musculus with 10 samples.

Results

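The response of WT-labelled fibroblasts to interferon-β (IFN-β) was described from 6 of the 10 libraries of this series: 3 untreated libraries and 3 treated with mouse IFN-β at 5000 IU/ml for 6 h. The cells were immortalised fibroblasts from mouse embryos, a standard culture of connective tissue. The other 4 libraries, 2 untreated and 2 with the same dose and time of IFN-β, came from fibroblasts labelled as Slfn2 knockout (KO-labelled). The labels name a WT and a KO immortalised culture whose cells were plated in duplicate or triplicate. The p-values thus measure the spread between such platings that remains with the replicate number in the model. That spread may be technical, is pooled over both cultures and is not a spread between independently derived lines. The 6 libraries were chosen by their labelled genotype and paired by replicate number. No gene was chosen beforehand: all 12313 genes with enough reads were tested.

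IFN-β binds a receptor of the subunits IFNAR1 and IFNAR2, whose kinases JAK1 and TYK2 phosphorylate STAT proteins such as STAT2. STAT2 acts with IRF9 in a complex that binds the interferon-stimulated response element (ISRE) in promoters, while other STAT dimers bind the gamma-activated site (GAS). The induced genes are known for blocking virus entry, translation and replication, for displaying peptides on MHC class I, and for ending the signal through SOCS1 and USP18.

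Values are counts of reads per gene after the authors' scaling for library size, here called normalised reads. The WT-labelled libraries held 13565815 to 15265097 reads, with a read in 13880 to 14230 genes. Changes are log2 fold changes of normalised reads plus 1, with the replicate number as a term in the model, and a gene is said to rise or fall at a limma adjusted p under 0.05. The 11 fibroblast markers were all expressed, led by Col1a1 and Col1a2, and none changed. Of 10 macrophage markers, Ptprc, Emr1, Fcgr1 and Tyrobp were at 0 in all 6 libraries, while Cd14 (205 to 346 normalised reads), Cd68 (26.8 to 46.3) and Csf1r (45.4 or fewer) were read and did not pass. That list summed to 295 to 422 untreated and 259 to 327 with IFN-β. Among neural markers Tubb3 had 613 to 1285 reads and Mtap2 27.1 to 127, with no call, and Sox10 was at 0. The markers of lymphocytes, epithelium and endothelium summed to 20.2 normalised reads or fewer per library. In such bulk RNA a change in how many cells respond and a change in RNA per cell cannot be told apart. Slfn2, the gene named in the labels, is itself induced by interferon. It stood at 18.7, 17.4 and 15.5 normalised reads in the untreated and 527, 449 and 573 in the IFN-β WT-labelled libraries. In KO-labelled cells it stood at 46.1 and 34.9 before and 75.0 and 171 after treatment. Which part of the gene the knockout removed is not given in the sources used here, so reads over the whole gene do not check the genotype.

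Of the 12313 genes, 576 rose (4.68%) and 33 fell (0.268%). The rises were large and the falls small. The median rise was 1.44 on the log2 scale, and 384 of the 576 genes rose more than 2-fold, 212 more than 4-fold, 118 more than 16-fold and 55 more than 64-fold. Among the rising genes 24 had no read in any untreated library. With these at the lower bound set by a floor of 3 reads per library, 209 genes passed 4-fold, 109 passed 16-fold and 47 passed 64-fold. The median fall was -0.56, and 3 genes fell more than 2-fold. All 576 rose in each of the 3 pairs of libraries and all 33 fell in each, where 19.7% of all tested genes were higher and 24.8% lower in every pair; a paired model favours such genes. The 3 IFN-β libraries lay wholly above the 3 untreated ones for 508 of the 576 (88.2%, against 7.48% of all tested genes). They lay wholly below for 15 of the 33 (45.5%, against 4.11%). The median of all tested genes was -0.03. Without the replicate number in the model, 272 genes rose and 0 fell. Leaving out untreated library 3 or IFN-β library 3 left 366 and 361 rising genes.

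**Figure D1:**
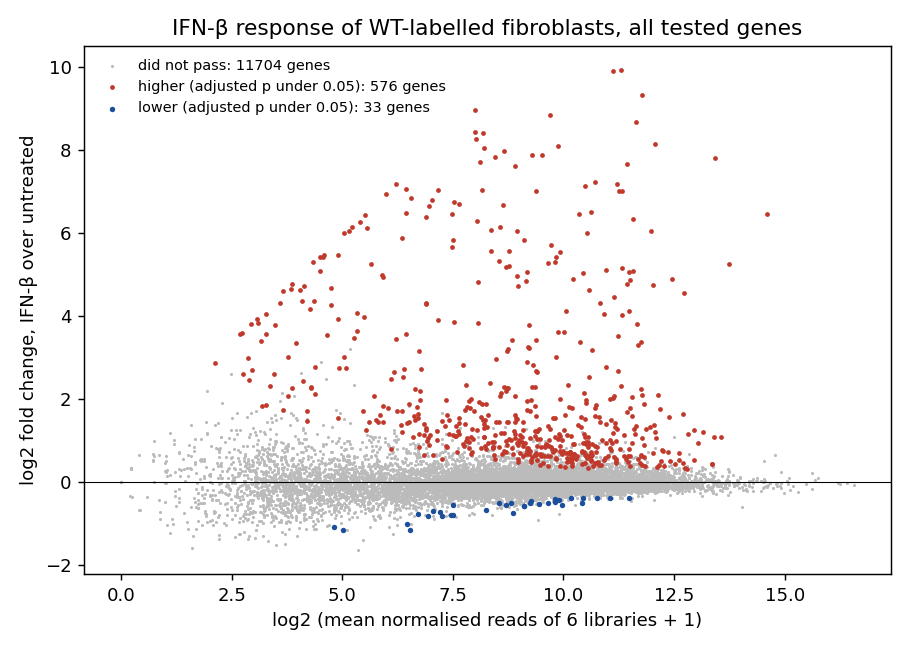
Log2 fold change (IFN-β over untreated, vertical axis) against log2 of the mean normalised reads plus 1 over the 6 WT-labelled libraries (horizontal axis), 1 point per tested gene. The 576 genes that rose (red) reach a log2 fold change of 9.94, while the 33 that fell (blue) reach -1.16.

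In reads, the 576 rising genes took 2.75, 2.68 and 2.81% of the untreated libraries and 7.08, 7.42 and 7.38% of the IFN-β libraries. The 118 genes that rose more than 16-fold took 0.031, 0.0536 and 0.0559% of the untreated reads. They took 1.98, 2.09 and 2.2% of the reads with IFN-β. The treated shares were close to each other in all 3 libraries. Their gap to the untreated shares follows from the choice of these genes by their rise in the same libraries.

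The promoter letters of the rising genes are shown first, since the ISRE is where the complex that holds STAT2 and IRF9 acts. The windows run from 250 bases before to 50 bases after the start site in RefSeq (GRCm38.p6). The 6 printed here all hold the ISRE core, as did only 94 of 448 rising genes (21%). Among genes with a match they cover different roles and sizes of response. They belong to Ifit3 and Rsad2 (antiviral proteins), Isg15 (a ubiquitin-like modifier), Cxcl10 (a chemokine), Socs1 (a feedback inhibitor) and Ppp1r15a (a stress-response phosphatase subunit). Capitals mark each match to the ISRE core, which is GAAA, then NN for any 2 bases, then GAAA, or to its reverse complement.
Ifit3: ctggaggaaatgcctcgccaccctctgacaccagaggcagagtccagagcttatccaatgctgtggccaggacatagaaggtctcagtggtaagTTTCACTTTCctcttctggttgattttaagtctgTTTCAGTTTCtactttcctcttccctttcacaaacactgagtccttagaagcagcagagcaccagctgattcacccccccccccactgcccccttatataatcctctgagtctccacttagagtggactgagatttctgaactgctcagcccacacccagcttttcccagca
Isg15: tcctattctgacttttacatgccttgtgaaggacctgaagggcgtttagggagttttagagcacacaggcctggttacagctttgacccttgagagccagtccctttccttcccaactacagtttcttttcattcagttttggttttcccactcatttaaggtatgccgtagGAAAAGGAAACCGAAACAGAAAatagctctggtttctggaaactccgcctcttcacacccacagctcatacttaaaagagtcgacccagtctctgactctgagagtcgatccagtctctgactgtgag
Rsad2: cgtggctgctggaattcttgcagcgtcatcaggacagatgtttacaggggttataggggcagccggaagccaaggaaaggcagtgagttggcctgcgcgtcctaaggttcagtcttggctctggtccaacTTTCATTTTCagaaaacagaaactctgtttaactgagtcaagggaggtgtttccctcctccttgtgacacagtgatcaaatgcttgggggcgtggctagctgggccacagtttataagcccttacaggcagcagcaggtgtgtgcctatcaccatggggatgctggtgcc
Cxcl10: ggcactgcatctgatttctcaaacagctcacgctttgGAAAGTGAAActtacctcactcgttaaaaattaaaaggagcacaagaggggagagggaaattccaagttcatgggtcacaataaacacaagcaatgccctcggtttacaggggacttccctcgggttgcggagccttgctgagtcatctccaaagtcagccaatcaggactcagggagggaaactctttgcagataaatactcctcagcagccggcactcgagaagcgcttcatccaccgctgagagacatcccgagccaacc
Socs1: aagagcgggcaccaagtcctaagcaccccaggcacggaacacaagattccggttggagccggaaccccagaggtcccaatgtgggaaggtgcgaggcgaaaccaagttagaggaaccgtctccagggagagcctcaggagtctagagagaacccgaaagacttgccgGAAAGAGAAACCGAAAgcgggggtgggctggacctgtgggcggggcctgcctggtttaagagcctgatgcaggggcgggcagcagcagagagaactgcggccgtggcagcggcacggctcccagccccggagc
Ppp1r15a: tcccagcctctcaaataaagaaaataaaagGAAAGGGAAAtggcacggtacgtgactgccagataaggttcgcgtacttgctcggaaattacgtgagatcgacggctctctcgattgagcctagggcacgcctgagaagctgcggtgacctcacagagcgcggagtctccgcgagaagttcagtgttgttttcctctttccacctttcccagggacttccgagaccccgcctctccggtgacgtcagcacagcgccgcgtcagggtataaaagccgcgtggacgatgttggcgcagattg
Each is written 5′ to 3′ on the strand of its gene. The Ifit3 window is chr19:34583279-34583578 on the plus strand, with matches beginning 156 and 122 bases before the start site. The Isg15 window is chr4:156200769-156201068 on the minus strand, with 3 overlapping matches that begin at 78, 72 and 66 bases before it. The Rsad2 window is chr12:26456403-26456702 on the minus strand and its match begins 120 bases upstream. The Cxcl10 window is chr5:92348840-92349139 on the minus strand with a match 213 bases upstream. The Socs1 window, chr16:10785487-10785786 on the minus strand, has overlapping matches at 83 and 77 bases. The Ppp1r15a window, chr7:45526219-45526518 on the minus strand, has a match 220 bases upstream. A match describes the letters and does not show a bound site.

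The share of genes with the ISRE core was higher among the larger rises. A RefSeq promoter was found for 9738 of the tested genes. The ISRE core, on either strand, stood in a promoter of 3.7% of them (360 genes) and in 3.44% of the table's 32851 promoters. Among the rising genes it stood in 94 of 448 (21%). Among the falling genes it stood in 0 of 27, and among the rest in 2.87%. For rises of up to 0.5 on the log2 scale the share was 7.14%, and it was 6.78% from 0.5 to 1. It was 12.7% from 1 to 2, 24.4% from 2 to 4, 50% from 4 to 6 and 65% (26 of 40) above 6. The last bin holds several members of the same families, such as Igtp and Irgm2, Slfn8 and Slfn9, or Oas1a and Oas1g. Its genes are therefore not independent cases. The GAS core TTCNNNGAA, searched on both strands and able to share bases with an ISRE core, stood in 8.25% of tested genes, 8.3% of all promoters, 12.1% of rising genes and 7.41% of falling genes. Rising genes had 1.32 promoters in the table on average and all tested genes 1.28, and a gene was counted if any of its promoters matched. Rising genes in none of the gene lists below held the ISRE core in 28 of 239 cases (11.7%), those in a list in 66 of 209 (31.6%).

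**Figure D2:**
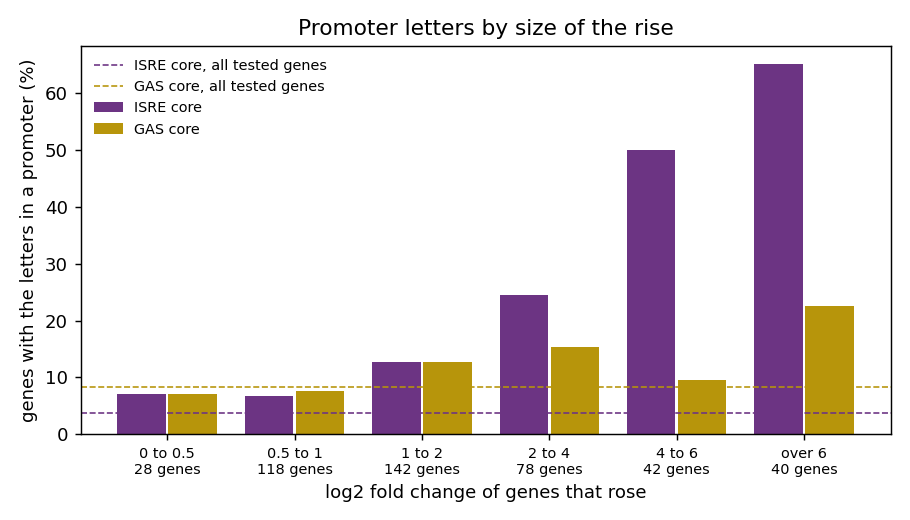
Percent of rising genes with the ISRE core (purple bars) or the GAS core (yellow bars) in a promoter, by log2 fold change, with the number of genes under each bin. Dashed lines give the shares over all tested genes, 3.7% and 8.25%; the ISRE bars reach 65% in the last bin, while the GAS bars are 15.4%, 9.52% and 22.5% (9 of 40 genes) in the last 3 bins.

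In the signalling chain, genes downstream of the receptor rose. Of 28 tested genes of the receptor, JAK-STAT and IRF list, 12 rose and 0 fell (median 0.19). Ifnar1 and Ifnar2, which encode the receptor, had log2 fold changes of -0.02 and 0.08, and Jak1 and Tyk2 had 0.22 and -0.24, none past the test. Stat2 read 103, 255 and 192 in the untreated and 3287, 4157 and 2942 in the IFN-β libraries, a log2 fold change of 4.31 ± 0.25 (SE, n = 3 pairs, limma adjusted p = 1.9e-05). Every treated library stood far above every untreated one. Irf9 rose by 3.02 and Irf1 by 1.78 on the same scale.

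Irf7, which amplifies interferon production, read 58.2, 18.4 and 8.26 untreated and 3420, 3261 and 3284 with IFN-β (7.24 ± 0.49 SE, n = 3, limma adjusted p = 4.3e-05). Its treated levels were nearly equal while its untreated levels spread widely. Usp18, which removes ISG15 from proteins and shuts the receptor off, had the largest fitted change of the genes named by the rule, 9.94 ± 0.62 (SE, n = 3, limma adjusted p = 2.8e-05). It read 20.9, 0.968 and 2.06 untreated and 5705, 3925 and 5558 with IFN-β, so 1 untreated library held most of its background reads. Socs1 read 121, 134 and 169 untreated and 608, 611 and 659 with IFN-β (2.15). Socs2, of the same family, rose by 1.44. The calls of Irf1 and Socs2 were lost without the replicate number (adjusted p = 0.12 and 0.23).

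The gene lists were chosen with earlier results of these data known, so counts and shares per list may partly follow from that choice. Among them, antiviral effectors gave the largest number of rises of any list. Of 47 tested members 41 rose and none fell, with a median of 4.18. Their summed level went from 16457, 23271 and 19946 normalised reads to 147394, 150529 and 147046. Ifit1, which binds viral RNA ends, read 308, 1236 and 880 untreated and 26349, 26493 and 26910 with IFN-β (5.25 ± 0.45 SE, n = 3, limma adjusted p = 0.00016). Its untreated libraries differed among themselves far more than its treated libraries, and the groups were wide apart.

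Ifit3 read 98.8, 157 and 55.7 untreated and 23065, 21512 and 20746 with IFN-β (7.82). Rsad2, which makes a chain-terminating nucleotide, read 17.6, 35.8 and 38.2 and then 8355, 8667 and 8539 (8.15). Mx1, a dynamin-like GTPase that traps viral nucleoproteins, read 8.78, 3.87 and 1.03 and then 4398, 5139 and 3802 (9.91). In none of these genes did the groups come near each other. Mx2 rose by 8.86, Oas3 by 7.73 and Eif2ak2, the RNA-activated kinase PKR, by 3.30. Oas2 held 3 reads untreated in all, and its ratio of means was 468 (95% counting interval 160 to 2270). The 6 members that did not pass were Ifitm1 (0.08), Ifitm2 (0.07), Plscr1 (0.10), AW549877 (0.40), Ifi27l1 (0.95) and Ifi27l2a (2.89).

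**Figure D3:**
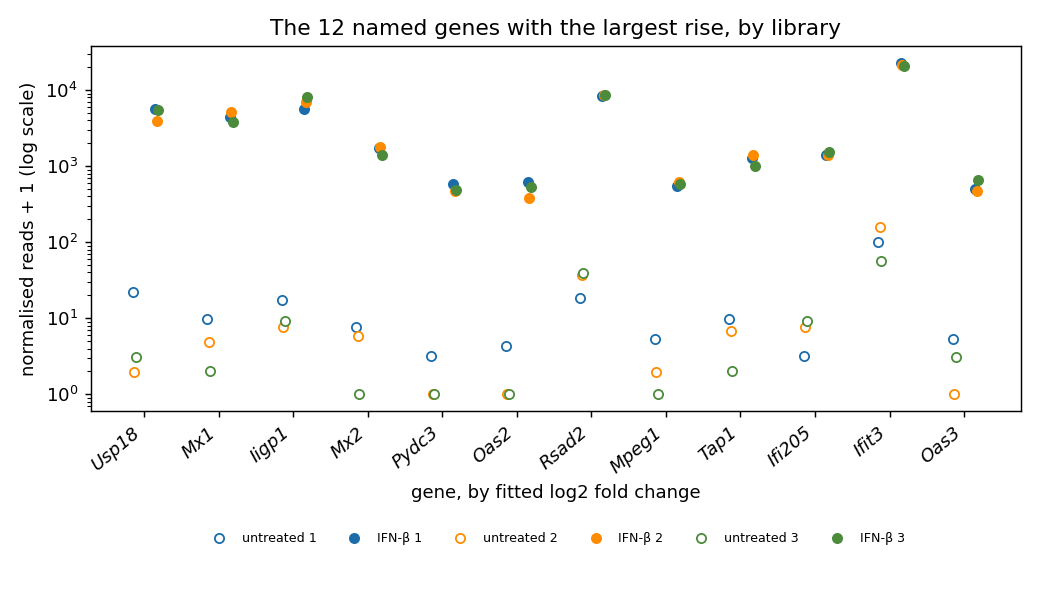
Normalised reads plus 1 (log axis) in each WT-labelled library for the 12 rule-named genes with the largest rise, open circles untreated and filled circles IFN-β, 1 colour per replicate number. For Usp18 the untreated points lie between 0.968 and 20.9 reads and the treated points between 3925 and 5705, and the groups of every gene shown are separate.

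Genes that sense foreign nucleic acid rose in 23 of 30 tested cases, with none falling and a median of 3.01. Tlr3, an endosomal sensor of double-stranded RNA, read 19.8, 42.6 and 74.3 untreated and 1552, 1860 and 1880 with IFN-β (5.43). The cytosolic sensors rose as well: Ddx58 (RIG-I) by 4.14, Ifih1 (MDA5) by 4.63 and Dhx58 by 5.29. Zbp1, a sensor of left-handed nucleic acid, read 63.7, 64.9 and 18.6 and then 1900, 1701 and 1599. Of the adaptors that carry the signal onward, Myd88 rose by 1.82, whereas Mavs (-0.21) and Ticam1 (-0.23) did not pass.

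The interferon-inducible GTPases, which attack the vacuoles of intracellular parasites, were the list with the highest share of rises. Of 22 tested members 21 rose, with a median of 6.30, or 5.62 with members at 0 untreated reads set to their lower bounds. Their summed level went from 1074, 2073 and 2625 to 50068, 64820 and 73051 normalised reads. Iigp1 read 16.5, 6.78 and 8.26 untreated and 5720, 7084 and 8233 with IFN-β (9.33). Igtp read 24.2, 34.9 and 19.6 and then 4270, 6124 and 6134 (7.68). Irgq, a family member without such a role known, had -0.28. Gm4841 held 0 reads in every untreated library and 486, 405 and 632 with IFN-β, at least 164-fold higher. Reads of such near-identical family members, and of the Oas1, Slfn and Ifi200 genes, can be shared, so their single values are uncertain.

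Among modifiers of other proteins, 16 of 27 tested members of the ISG15 and ubiquitin list rose (median 1.09). Isg15 read 183, 220 and 130 untreated and 6362, 5411 and 6073 with IFN-β (5.09 ± 0.37 SE, n = 3, limma adjusted p = 6.4e-05). Uba7, which activates ISG15, rose by 4.84 and Herc6, its ligase, by 3.61. In the TRIM family 10 of 37 rose (median 0.06), led by Trim12a (6.65) and Trim30a (6.00). Trim14 went from 0 reads to 28.8, 47.0 and 61.6, at least 14.8-fold. Of the ADP-ribosyl transferases (PARP family) 8 of 12 rose, or 5 without the replicate number, with Parp14 reading 30.7, 86.2 and 138 and then 4639, 6518 and 6892 (6.35). Dtx3l (5.05) and Parp9 (5.11) overlap on opposite strands. In the list of PML bodies, nuclear dots that silence viral genomes, 5 of 9 rose, among them Pml (2.09), Daxx (2.32) and Sp100 (6.71).

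Most genes of peptide display on MHC class I rose, and no gene of the class II pathway passed. For class I 18 of 23 tested members rose (median 1.89), and for class II 0 of 6 passed (median -0.01). H2-K1, a class I heavy chain, read 69.2, 108 and 69.2 untreated and 995, 606 and 717 with IFN-β (3.22). B2m, the shared light chain, read 3093, 3074 and 3539 and then 10504, 9480 and 10308 (1.64). Both genes had treated libraries wholly above the untreated. Tap1, a subunit of the peptide transporter, read 8.78, 5.81 and 1.03 and then 1298, 1413 and 1006 (7.90), but it overlaps Psmb9 on the other strand. Nlrc5, the class I transactivator, rose by 5.20. The chaperones Calr (-0.11), Pdia3 (-0.04) and Canx (0.05) did not pass, nor did Cd74 (0.03), the class II invariant chain.

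Secreted signals rose in few genes, some of them strongly. Of 20 tested chemokines 6 rose (median 0.05), and 3 without the replicate number. Cxcl10, which attracts activated T cells, read 419, 574 and 664 untreated and 61652, 41187 and 44536 with IFN-β (6.47 ± 0.29 SE, n = 3, limma adjusted p = 5.5e-06). Cxcl11, a ligand of the same receptor, read 2.20, 8.71 and 6.19 and then 324, 404 and 846 (6.31). Ccl2, a monocyte attractant, read 3280, 4297 and 9757 and then 10381, 10374 and 16221 (1.22), with the groups apart by little. Ccl11 (2.26) and Ccl2 lost their calls without the replicate number (adjusted p = 0.24 and 0.26), and Ccl11 also lost its call when any one WT-labelled library was left out.

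Of 32 interleukin and receptor genes 7 rose (median 0.34), and 2 without the replicate number. Il15, a growth factor for natural killer cells, held 0 untreated reads and 46.3, 56.0 and 106 with IFN-β, at least 22.4-fold higher. Its receptor chain Il15ra, which presents it to other cells, rose by 1.96. Il6 read 240, 119 and 76.4 untreated and 944, 562 and 322 with IFN-β (2.09), each pair rising while the order of the pairs stayed. That call was lost without the replicate number (adjusted p = 0.12) and without untreated library 2 or 3 or any IFN-β library. Tnfsf10 (TRAIL), a death ligand, read 0, 1.94 and 2.06 and then 204, 270 and 374 (7.05). Tnfrsf11b (osteoprotegerin), a decoy receptor, read 486, 47.5 and 56.8 and then 1263, 368 and 275 (2.19). Its groups overlapped and its call was lost without the replicate number (adjusted p = 1).

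At the cell surface and in cell death pathways, Cd274 (PD-L1), which restrains T cells, read 19.8, 11.6 and 20.6 untreated and 881, 813 and 867 with IFN-β (5.58). Lgals9 rose by 2.24 and Cd47, a signal against engulfment, by 1.01. Cd47 had an adjusted p of 0.069 without the replicate number. Of 42 tested genes in the cell death list 13 rose (median 0.18). They include D14Ertd668e (current symbol Phf11d, 7.98), the largest rise of the list, and Gm4902 (Phf11b, 6.86). No role of these genes in cell death is claimed here. Mlkl, the executor of necroptosis, read 139, 170 and 243 and then 1158, 1110 and 1198 (2.68). Casp4, a caspase that binds bacterial lipopolysaccharide, rose by 2.97 and Xaf1 by 5.71. Ripk1 rose by 0.37, a call lost when any of the 10 libraries was left out.

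**Figure D4:**
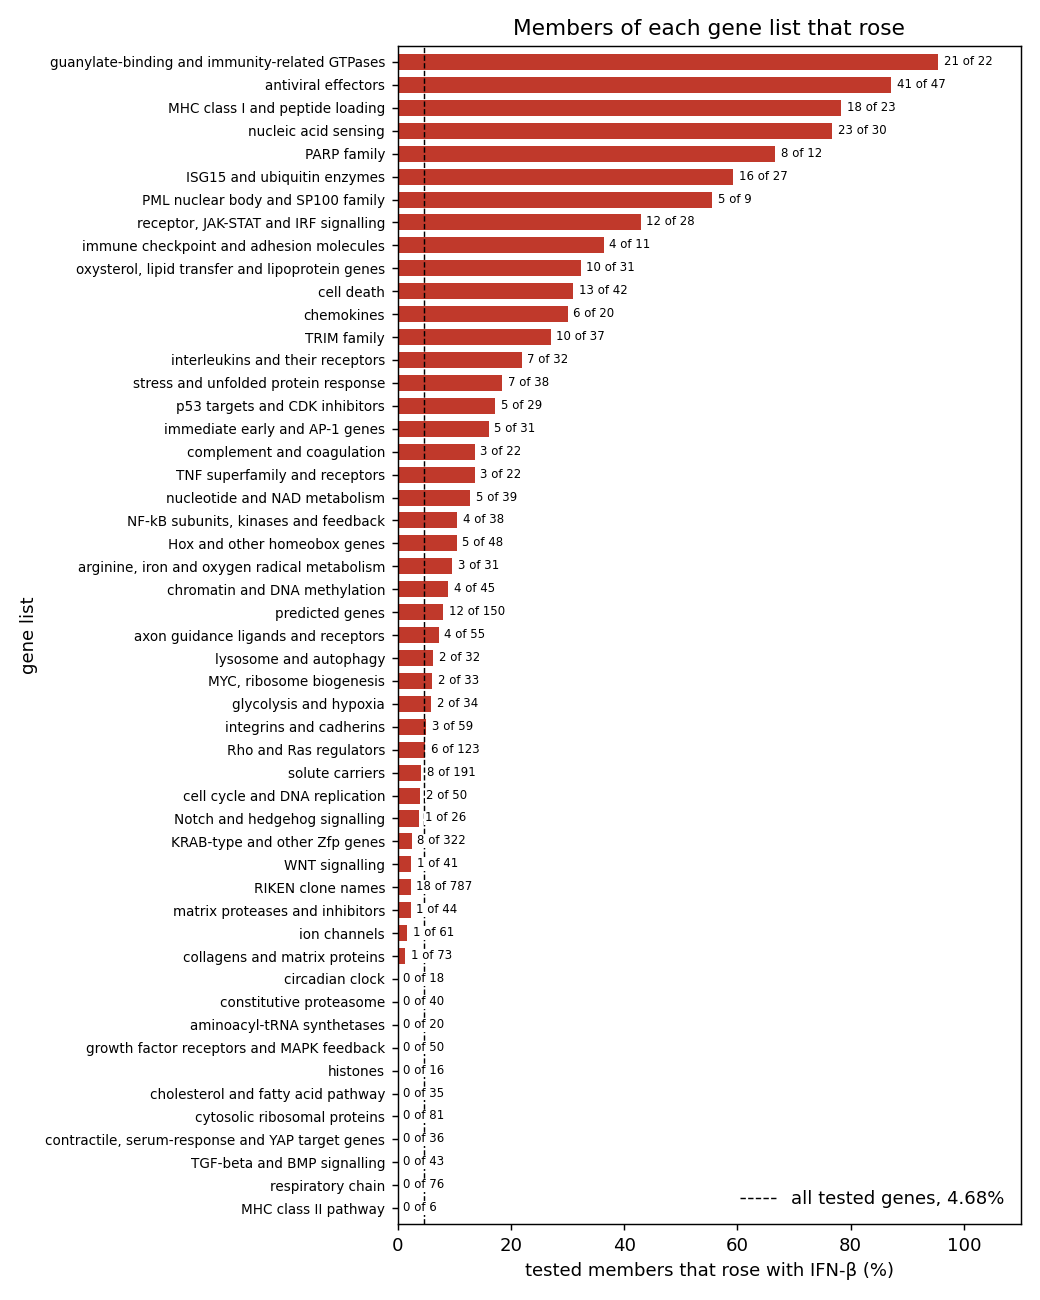
Percent of the tested members of each gene list that rose with IFN-β (bars), with the number that rose of the number tested. The dashed line marks 4.68%, the share over all tested genes. The GTPase list has 21 of 22 and the cytosolic ribosomal protein list 0 of 81. The lists were chosen with earlier results of these data known, so the shares may partly follow from that choice.

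Of the 576 rising genes 309 were in none of the gene lists. The same share over all tested genes was not counted, so this number does not set the rising genes apart. In lipid handling 10 of 31 tested genes of oxysterols, lipid transfer and lipoproteins rose (median 0.52), against 0 of 35 in cholesterol and fatty acid synthesis (median -0.10). The number in lipid handling was 4 without the replicate number. It ranged from 5 to 12 with 1 WT-labelled library left out. Apod, a lipocalin that carries lipids outside the cell, read 4.39, 2.90 and 0 untreated and 202, 286 and 211 with IFN-β (6.39 ± 0.69 SE, n = 3, limma adjusted p = 0.00071). Lipg (endothelial lipase) read 64.8, 106 and 186 and then 1241, 2401 and 2368 (4.13, adjusted p = 0.0504 without the replicate number). Both genes separated the groups fully. Apol6, of a family that inserts into membranes, rose by 5.34. Lpl, lipoprotein lipase, rose by 0.97, with an adjusted p of 0.056 without the replicate number.

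Nucleotide and redox enzymes gave smaller sets. Of 39 tested genes of nucleotide and NAD metabolism 5 rose (median -0.04). Cmpk2, a mitochondrial nucleotide kinase next to Rsad2, read 21.96, 51.3 and 39.2 untreated and 4236, 4333 and 5883 with IFN-β (7.03). Pnp, which splits purine nucleosides, read 572, 942 and 1173 and then 3456, 3235 and 3865 (2.03). Xdh (xanthine dehydrogenase), a later enzyme of purine breakdown, read 242, 720 and 660 and then 1330, 2954 and 2551 (2.15). Nampt, the rate-limiting enzyme of NAD salvage, rose by 1.28, and Samhd1, which hydrolyses deoxynucleotides, by 1.77. Nos2, the inducible nitric oxide synthase, read 162, 705 and 982 and then 2674, 3392 and 4050 (2.78). Nox4, which makes hydrogen peroxide, rose by 1.23. Without the replicate number Xdh, Nos2 and Nox4 had adjusted p-values of 0.53, 0.29 and 0.12, and Nos2 also lost its call without untreated library 2.

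Transcription and chromatin regulators outside the IRF and STAT families rose too. Batf2, an AP-1 family factor, held 0 untreated reads and 87.5, 49.99 and 79.9 with IFN-β, at least 23.4-fold higher. Atf3, a stress-induced repressor, read 203, 118 and 112 and then 477, 384 and 397 (1.58). Mxd1, which competes with MYC for MAX, rose by 2.00. Myc itself read 12815, 7342 and 6489 and then 17079, 10213 and 8953 (0.45), with overlapping groups. It lost its call without the replicate number (adjusted p = 1), without any WT-labelled library and without either KO-labelled IFN-β library. Klf4 rose by 1.75 (adjusted p = 0.065 without the replicate number), a call lost without untreated library 2 or 3 or IFN-β library 3. Among 45 tested chromatin genes 4 rose (median 0.09), or 2 without the replicate number, including Setdb2, a histone methyltransferase (1.62), and Kat2b, a histone acetyltransferase (1.56). Kat2b had an adjusted p of 0.074 without the replicate number.

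The lists of developmental signalling had few rises, 1 of 26 for Notch and hedgehog, 1 of 41 for WNT and 0 of 43 for TGF-β and BMP, shares below the 4.68% of all tested genes. Dll1, a Notch ligand, held 0, 0.968 and 3.10 normalised reads untreated and 54.6, 46.0 and 51.0 with IFN-β (4.68 ± 0.45 SE, n = 3, limma adjusted p = 0.00033). It was the 1 gene of the Notch and hedgehog list to pass. Unc5c, a netrin receptor, read 152, 122 and 160 and then 689, 738 and 681 (2.28). The treated libraries of both genes lay close together and far from the untreated. Hoxb8 read 112, 189 and 160 and then 255, 366 and 346 (1.08), and 5 of 48 tested homeobox and T-box genes rose. That number was 1 without the replicate number and 1 or 2 with a WT-labelled library left out. Loxl3, a collagen crosslinking enzyme, rose by 1.12 and was the 1 gene of 73 in the collagen and matrix list to do so. Hoxb8 and Loxl3 had adjusted p-values of 0.20 and 0.13 without the replicate number. The axon guidance list had 4 of 55 rising (7.27%, against 4.68% of all tested genes). Another 3 of the 55 fell, where 0.268% of all tested genes did. Without the replicate number 1 rose, and with a WT-labelled library left out 1 to 3 changed in all.

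In the stress and unfolded protein list 7 of 38 rose (median 0.05), and 1 without the replicate number. Besides Eif2ak2 they rose by modest amounts, and they include Atf4, the factor of the integrated stress response. It ranged from 2 to 7 with 1 WT-labelled library left out. Trib3 read 1082, 1532 and 517 untreated and 1989, 2118 and 1518 with IFN-β (0.97). Its groups overlapped, since untreated library 2 exceeded IFN-β library 3. Sesn2 rose by 0.91, Chac1 by 0.88, Ppp1r15a by 0.68, Atf4 by 0.44 and Mthfd2 by 0.40. Without the replicate number these 6 genes had adjusted p-values of 0.51, 0.28, 0.52, 0.93, 0.93 and 1 in that order. Sesn2 kept its call with any library left out. Atf4 kept its call only without IFN-β library 2 and Mthfd2 only without untreated library 2, of the 10 libraries left out in turn. Trib3 lost its call without untreated library 3 or IFN-β library 1 or 3, Chac1 also without untreated library 2, and Ppp1r15a without untreated library 2 or 3 or IFN-β library 1 or 3. The 20 aminoacyl-tRNA synthetases, some of them known targets of ATF4, had 0 calls (median 0.09).

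Some of the largest rises belonged to genes in no list, and these were chosen after their values were seen. Cngb3, a cone photoreceptor channel subunit, held 0 untreated reads and 70.03, 66.0 and 54.9 with IFN-β. Hap1, a huntingtin-associated trafficking protein, read 15.4, 17.4 and 20.6 and then 1084, 1182 and 980 (5.85). Rtp4, a receptor transport protein, read 28.6, 60.0 and 36.1 and then 1978, 1865 and 1861 (5.55). Cngb3 was at least 20.5-fold higher, and in all 3 genes the groups were far apart. Tor3a, an endoplasmic reticulum ATPase, rose by 4.88, and Samd9l, a growth-restraining antiviral protein, by 4.78. Lmo2, a transcription cofactor of blood stem cells, held 0 untreated reads and 37.1, 29.0 and 13.5 with IFN-β, at least 8.56-fold higher. Hdc, which makes histamine, read 3.29, 12.6 and 6.19 and then 38.1, 72.0 and 44.3 (2.76, adjusted p = 0.16 without the replicate number).

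Some rising genes lay beside each other on the chromosomes. Of the 572 with a position, 194 (33.9%) were next to another rising gene among the tested genes, as were 8.65% of all 12193 tested genes with a position, and 24 runs of at least 3 held 108 genes. A run of 9 on chromosome 1 spanned 466 kb and held Ifi200 family genes with log2 fold changes from 3.37 to 8.44. Of the 2 runs of 8 on chromosome 11, that of the immunity-related GTPases had a median of 6.99 and that of the Schlafen genes, Slfn2 among them, 5.36. Some runs held a smaller rise beside large ones. Agrn, an extracellular matrix proteoglycan next to Isg15, read 897, 930 and 1050 and then 2323, 2898 and 2740 (1.46). Sdad1, beside Cxcl9, rose by 0.57, and Rbfox2, among the Apol genes, by 0.42. These 3 neighbours were chosen after their values were seen. Reads running on from a neighbouring gene were not tested. Sdad1 had an adjusted p of 1 and Rbfox2 of 0.50 without the replicate number. Rbfox2 also lost its call without any of the 10 libraries, and Sdad1 without any untreated library or IFN-β library 2 or 3.

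Large housekeeping groups showed no called gene. None of the 81 tested cytosolic ribosomal protein genes (median -0.13) or the 76 respiratory chain genes (median -0.15) passed. Summed ribosomal protein reads went from 390705 to 292560 in pair 2, but from 305770 to 310446 in pair 1 and from 319651 to 322136 in pair 3. The respiratory chain sum also fell most in pair 2, from 189267 to 149055. None of the 40 constitutive proteasome genes (median -0.12) or the 16 histones (median -0.18) passed either. Outside the housekeeping groups, the 43 TGF-β and BMP genes (median 0.09) had no call. In the cell cycle list 2 of 50 rose, Ccnd2 (0.54) and Cenpe (0.63), with a median of -0.09. Both lost their calls without the replicate number (adjusted p = 0.50 and 0.23). Ccnd2 lost its call without any untreated library, IFN-β library 2 or 3 or KO-labelled IFN-β library 2, and Cenpe without any WT-labelled library. Nfkbia, the NF-κB inhibitor and a standard target of that pathway, read 815, 915 and 1524 and then 798, 759 and 1239 (-0.20 ± 0.11 SE, n = 3, limma adjusted p = 0.45), with overlapping groups. In its list 4 of 38 genes rose, N4bp1 (1.59), Map3k8 (1.64), Peli1 (1.23) and Azi2 (1.02). Map3k8 had an adjusted p of 0.067 without the replicate number.

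The 33 falling genes were a mixed set of small changes, from -1.16 to -0.37. Of them 26 stood in none of the lists, a share that was not counted over all tested genes. Fbxo32 (atrogin-1), a ubiquitin ligase adaptor of muscle wasting, read 793, 445 and 511 untreated and 394, 272 and 362 with IFN-β (-0.74 ± 0.12 SE, n = 3, limma adjusted p = 0.009). Its treated libraries all lay below the untreated, and its call was lost only without IFN-β library 1 among the 10 libraries. Gp1bb, a platelet glycoprotein chain, read 49.4, 57.1 and 23.7 and then 25.8, 21.99 and 9.63, the largest fall (-1.16). Untreated library 3 lay below IFN-β library 1, so the groups overlapped although each pair fell.

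The receptors of the G protein-coupled kind among the falls were Gpr56, Adra1d, Lpar2, Gpr153 and Lphn1, a grouping made after their values were seen and not set against all such receptors. Gpr56, an adhesion receptor, read 93.3, 157 and 126 untreated and 38.1, 51.0 and 83.8 with IFN-β (-1.15). Lpar2, a receptor of lysophosphatidic acid, read 554, 838 and 609 and then 407, 506 and 408 (-0.58). Both had treated libraries wholly below the untreated, as had Gpr153 (-0.51). Adra1d, an adrenergic receptor (-0.70), and Lphn1 (-0.39) had overlapping groups. The axon guidance genes that fell were Efna4 (-0.82), Sema3f (-0.49) and Ephb4 (-0.39), all with overlapping groups. Solute carrier Slc22a4, a transporter of ergothioneine, read 35.1, 48.4 and 27.9 and then 12.4, 27.0 and 13.5 (-1.08).

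The other falling genes had varied known roles, and no list by function but axon guidance held more than 1 of the 33. Sorbs3 (vinexin), a cytoskeletal adaptor, read 94.4, 366 and 225 untreated and 52.5, 193 and 144 with IFN-β (-0.80), with overlapping groups but a fall in each pair. Tuba4a, an α-tubulin, read 313, 369 and 434 and then 214, 199 and 298 (-0.66), with the groups apart. Smtn (smoothelin) fell by 0.51 and was the 1 gene of 36 in the contractile and serum-response list to change. Rapgef3, activated by cyclic AMP (-0.79), Akap12, a scaffold of protein kinase A (-0.56), and Camkk1, a calmodulin-dependent kinase (-0.77), also fell. The Polycomb genes Cbx2 and Cbx6 fell by 0.50 and 0.38. Vash2, an enzyme that trims tubulin, read 769, 886 and 819 and then 508, 652 and 570 (-0.52), with the groups apart. Sgsh, a lysosomal sulfatase (-0.73), Atp6v0a1, a proton pump subunit (-0.57), and Srxn1, which repairs oxidised peroxiredoxin (-0.40), fell as well. The clone 1110021J02Rik (-0.56) overlaps Ftsjd2, which rose 2.18-fold, on the other strand.

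The falls rested on the pairing and on all libraries. Without the replicate number none passed, 13 of the 33 passed with the 6 WT-labelled libraries alone, and 0 of the 33 kept their call through every removal of 1 library. The number of falling genes was 13, 21 and 2 without untreated library 1, 2 or 3, and 7, 4 and 2 without IFN-β library 1, 2 or 3. It was 23 and 22 without KO-labelled untreated library 1 or 2 and 16 and 14 without KO-labelled IFN-β library 1 or 2. The median fall was -0.51, -0.65 and -0.54 in pairs 1, 2 and 3.

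Transcript GC content moved with the falls. The falling genes had a median GC content of 56.4%, the rising genes 48% and all tested genes 49.6%. Across 12193 tested genes with a value, which share libraries and are not independent, Spearman's rho of the fold change with GC content was -0.37. By pair it was 0.01, -0.50 and -0.15, so the slope lay mainly in pair 2. With that trend removed, an analysis added after seeing the data, 22 genes fell and 17 of the 33 kept their call, Fbxo32, Gpr56, Slc22a4 and Vash2 among them. Of the receptors grouped above, Gpr56 and Lpar2 kept their calls. Adra1d, Gpr153 and Lphn1 lost theirs (limma adjusted p = 0.11, 0.11 and 0.14). Of the axon guidance genes that fell, Efna4 kept its call, and Sema3f and Ephb4 lost theirs (0.18 and 0.12). All 33 still had negative values. The number of rising genes was then 623, of which 560 were among the 576.

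**Figure D5:**
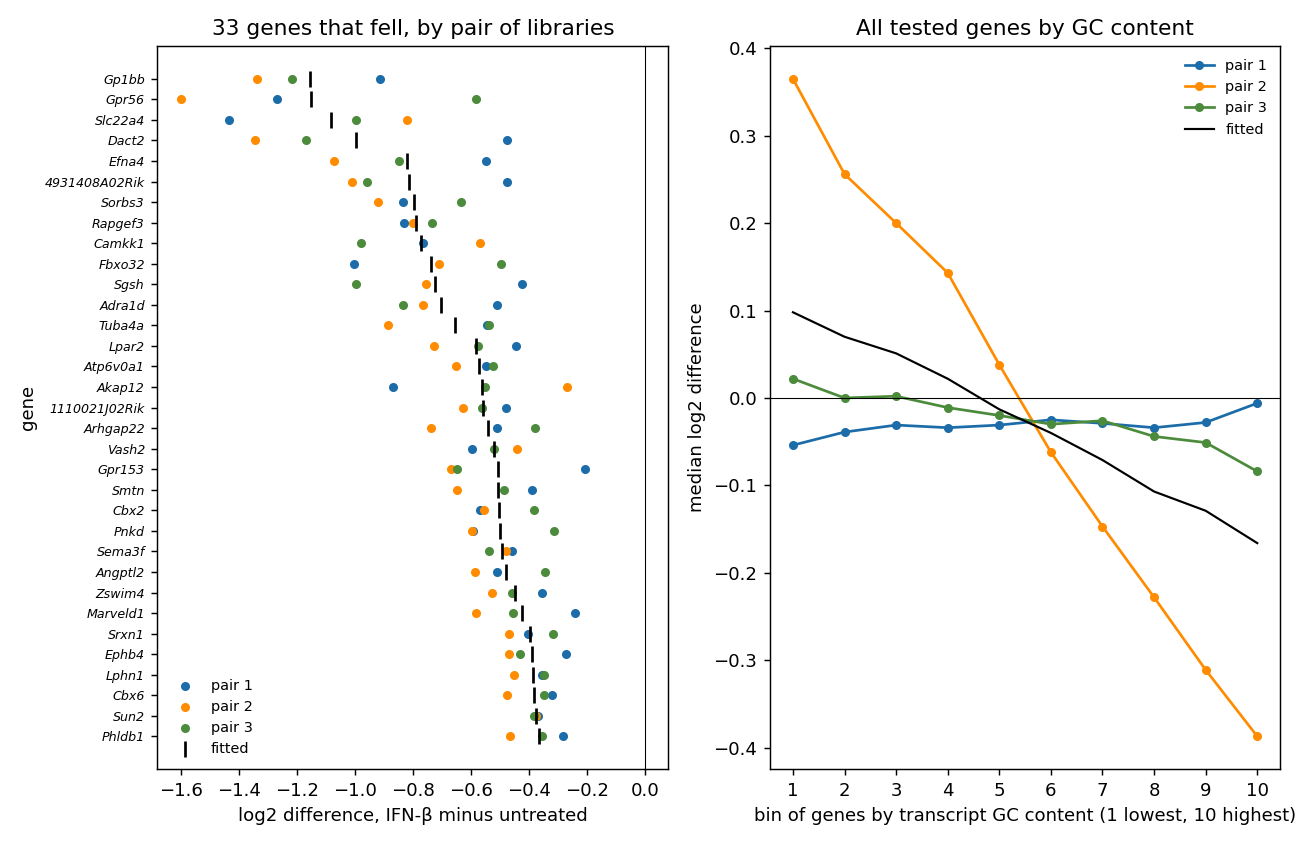
Left, log2 difference between IFN-β and untreated library in pairs 1, 2 and 3 (coloured points) and the fitted change (black bar) for the 33 falling genes. Right, median log2 difference of all tested genes in 10 bins by transcript GC content; pair 2 runs from 0.365 to -0.387, while pairs 1 and 3 stay between -0.084 and 0.022.

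The KO-labelled libraries, with 2 pairs, entered the model that estimates the spread and the replicate terms, and their own response places these changes. Of the 576 rising genes 573 had a positive value there (median 1.35), and 386 passed the test in that direction, against 3.37% of all tested genes. These are 67% of the genes that rose in WT-labelled cells and 93% of the 415 that rose in KO-labelled cells. All 33 falling genes had a negative value (median -0.51, against 56.4% negative of all tested genes), and 6 passed, against 0.114%. The 6 were Fbxo32, Adra1d, Lpar2, 1110021J02Rik, Vash2 and Cbx6. They are 18.2% of the falls in WT-labelled and 42.9% of the 14 in KO-labelled cells. With the GC trend removed, Adra1d and Cbx6 lost their WT-labelled calls (limma adjusted p = 0.11 and 0.051), and the others kept theirs. KO-labelled changes also declined with GC content, from a median of 0.043 in the lowest bin to -0.124 in the highest. How much of the shared direction goes with this slope was not tested. The test of the difference between the 2 responses called 0 genes with limma (0%, 151 at an unadjusted p under 0.05). edgeR called 0 as well (140 unadjusted), and DESeq2 called 7.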

How the data were processed

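Stranded total RNA libraries were sequenced from 10 cultures, of which the 6 WT-labelled ones carry the comparison. The submitters' processing notes name cutadapt 1.13, STAR 2.5.2a, HTSeq, DESeq2 and the build mm10, without their settings; the annotation and strand setting are not given in the sources used here. The deposited values are a signal: for each of 23337 gene symbols the authors gave a read count scaled by a factor specific to the library. All of them were whole multiples of what 1 read is worth in the library, within 0.001 reads (100%), so read counts and depth were recovered.

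Because these values are not raw counts, the planned test for scaled values was used: the trend method of limma 3.58.1 in R 4.3.3, applied to log2 of the value after adding a pseudocount of 1, over all 10 libraries with 4 group means and the replicate number as a block. Genes passed filterByExpr of edgeR 4.0.16 with a minimum count of 10, p-values are two-sided, and Benjamini-Hochberg adjustment ran over 12313 genes. Every adjusted p is from limma unless another tool is named. Adding 1 understates changes at low levels; for a group with 0 reads a lower bound is given against a floor of 3 reads per library, and for 1 to 3 reads a ratio with its 95% counting interval. Both cover counting error only. edgeR's quasi-likelihood test and DESeq2 1.42.0, on the recovered counts, were among the alternatives, and the fitting was tested on simulated data.

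The replicate numbers pair the libraries. Same-numbered libraries of different groups had correlated deviations from their group means (0.48 to 0.87), and the highest correlation between other libraries was 0.32. Deviations from a group mean cancel within the group, and those of the KO-labelled libraries in each group mirror each other. The gap between same-numbered and other libraries is therefore partly built in. The labels do not say what a number stands for, so the pairing rests on the data.

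The gene lists were chosen with earlier results of these data known. Always named were Slfn2, Ifit1, Isg15, Cxcl10, Irf7 and Nfkbia; some genes the rule names are not reported here. Further named were the 12 largest rises and 12 largest falls among called genes whose mean log2 CPM was 1 or more and whose pairs all moved the same way, leaving out predicted and clone names, and up to 4 called members per list and direction. Other called members of a list may be named with their values. Gene positions and GC content are from GENCODE M21 (GRCm38), matched for 12193 of the tested genes.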

Additional observations from a re-analysis of the deposited data

Results flagged for a closer look

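For 7 genes DESeq2, with the replicate number as a block, called a different IFN-β response in KO-labelled than in WT-labelled cells, while limma called none of them (adjusted p 0.40 to 1). Each difference is KO-labelled minus WT-labelled on the log2 scale, from DESeq2. Il6, an inflammatory cytokine, differed by 4.53 ± 0.76 (SE, DESeq2 adjusted p = 1e-05). In limma it rose by 2.09 in WT-labelled and had 6.29 in KO-labelled cells. Its KO-labelled libraries read 1.05 and 3.77 untreated, near the floor, and 251 and 235 with IFN-β. They lay below every WT-labelled library of the same treatment, so the larger change started from a lower untreated level. Ifit3 differed by 2.21 (limma values 7.82 and 9.94), Plscr2 by 2.12 (1.21 and 3.47), Ccl2 by 1.26 (1.22 and 2.48) and Ifit2 by 1.25 (1.89 and 3.16). Slfn2 differed by -3.34 ± 0.52 (SE, DESeq2 adjusted p = 2.4e-06), with limma values of 4.83 and 1.48, and Enpp4, an ectoenzyme of the nucleotide phosphodiesterase family, by -1.74 (2.29 and 0.56). DESeq2's adjusted p was 0.0069 for Ccl2, 1e-05 for Enpp4, 0.037 for Ifit2, 0.00013 for Ifit3 and 0.00032 for Plscr2.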

How the results depend on the processing

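The counts depended most on the replicate number. Without the replicate block 272 genes changed, 272 rising and 0 falling; the 272 were all among the 576, and the cause was not tested. DESeq2 called 724 rising and 56 falling genes, edgeR 580 and 39, and the 6 WT-labelled libraries alone 603 and 39, of which 515 were among the 576 and 13 among the 33. Leaving out each of the 10 libraries in turn gave 363 to 587 changed, 361 to 564 rising and 2 to 23 falling genes, with fewer samples in each fit; 335 of the 576 rises and 0 of the 33 falls kept their call throughout. For the difference between genotypes DESeq2 called 7 genes and the other fits 0. Other pseudocounts (0.5 and 5), TMM scaling, no filter and a stricter filter (mean of at least 50) gave 512 to 589 rising and 30 to 36 falling genes, and scaling by TMM moved the median of all genes by 0.00. None of the 152 genes named by the rule changed direction under the 20 alternatives; 69 of them did not pass without the block and 16 with the WT-labelled libraries alone. With 3 pairs, the smallest fall that passed was -0.37. Genes with 0 untreated reads have lower bounds, and fitted changes of genes with few untreated reads, such as Dll1 and Tnfsf10 (4 reads each), Oas3 (6), Apod and Trim12a (7 each), depend on the pseudocount.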
